A study of Mus musculus with 20 samples.

Results

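The genes followed here encode proteins of the provisional and matricellular matrix, and they were measured in cultured renal myofibroblasts of WT and WWP2-/- mice. They are *Fn1*, *Postn*, *Tgfbi*, *Tnc*, *Thbs1*, *Thbs2*, *Sparc*, *Ccn1* and *Ccn2*. They were chosen by name, 9 of the 51826 genes in the count table, and the pair *Fn1* and *Postn* was picked because their opposite behaviour in these libraries was already known. That opposition is therefore described here and not tested. All 9 were among the 20407 genes tested. The study examined what loss of WWP2, a ubiquitin ligase, changes in these cells at rest and after stimulation with TGFβ1. Its 20 libraries of poly-A RNA fall into 4 groups of 5, namely WT untreated, WT with TGFβ1, WWP2-/- untreated and WWP2-/- with TGFβ1, and every mouse was of the C57BL/6J strain. The labels call the knockout KO and give neither age, dose nor duration. The cells had grown out of minced kidney pieces and were passaged before use, so a library can hold any cell type that grows in such a culture. The labels do not say whether replicates came from separate animals. The study's methods say of its plotted data in general that a point stands for a mouse or for the cells of a mouse, without naming these libraries. *P* values measure the spread between these libraries, part of which may be technical.

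Fibronectin is secreted as a soluble dimer and pulled into fibrils by integrins, and these fibrils form the first scaffold of a wound or a scar. Matricellular proteins sit in that scaffold without bearing load, and tune how cells attach, move and read growth factors. In the injured kidney they are produced by interstitial myofibroblasts, and several of them are known targets of TGFβ1. The Ccn proteins are in addition textbook targets of YAP and TEAD, the transcription factors that respond to cell tension.

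In GRCm38 and GENCODE release M21, *Fn1* (ENSMUSG00000026193) lies on the minus strand at chr1:71585520-71653200. *Postn* (ENSMUSG00000027750) lies on the plus strand at chr3:54361109-54391037, and *Tgfbi* (ENSMUSG00000035493), which encodes the other secreted protein with fasciclin domains among the members, on the plus strand at chr13:56609523-56639562. *Tnc* (ENSMUSG00000028364) is at chr4:63959785-64047015 on the minus strand. The thrombospondin genes are *Thbs1* (ENSMUSG00000040152) at chr2:118111876-118127133 on the plus strand and *Thbs2* (ENSMUSG00000023885) at chr17:14665500-14694235 on the minus strand. *Sparc* (ENSMUSG00000018593) is at chr11:55394500-55423183 on the minus strand. *Ccn1* (ENSMUSG00000028195) is at chr3:145646976-145649981 on the minus strand and *Ccn2* (ENSMUSG00000019997) at chr10:24595442-24598683 on the plus strand. Counts were summed over the exons of each gene, so the splice forms of *Fn1* and *Tnc* could not be told apart.

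RefSeq promoters on GRCm38.p6 were matched for 6 of the 9 genes, namely *Postn*, *Tgfbi*, *Tnc*, *Thbs2*, *Sparc* and *Ccn1*. The start site used for *Sparc* lay 3103 bases from the 5′ end of its GENCODE gene. The next farthest was that of *Tgfbi*, at 63 bases. Promoters of 4 are shown because they stand for the patterns described below: *Postn* and *Thbs2* were high in the same libraries, *Tnc* was high in the others, and *Ccn1* varied least. Each run holds the 200 bases before the start site, read 5′ to 3′ along the gene, and capitals mark the TATAAA box, in either orientation, and the TEAD motif CATTCC.

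Postn, chr3:54360907-54361106, plus strand: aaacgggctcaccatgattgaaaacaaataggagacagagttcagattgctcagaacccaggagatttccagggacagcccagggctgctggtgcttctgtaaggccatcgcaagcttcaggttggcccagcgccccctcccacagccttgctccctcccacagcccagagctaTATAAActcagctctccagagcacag
Tnc, chr4:64047016-64047215, minus strand: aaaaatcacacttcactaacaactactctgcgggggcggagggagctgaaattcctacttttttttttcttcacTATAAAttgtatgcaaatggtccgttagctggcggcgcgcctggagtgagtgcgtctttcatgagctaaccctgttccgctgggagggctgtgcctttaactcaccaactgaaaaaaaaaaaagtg
Thbs2, chr17:14694263-14694462, minus strand: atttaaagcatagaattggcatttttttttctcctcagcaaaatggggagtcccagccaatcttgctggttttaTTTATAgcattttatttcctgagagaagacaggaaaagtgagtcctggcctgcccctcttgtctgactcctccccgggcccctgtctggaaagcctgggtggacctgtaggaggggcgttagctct
Ccn1, chr3:145649986-145650185, minus strand: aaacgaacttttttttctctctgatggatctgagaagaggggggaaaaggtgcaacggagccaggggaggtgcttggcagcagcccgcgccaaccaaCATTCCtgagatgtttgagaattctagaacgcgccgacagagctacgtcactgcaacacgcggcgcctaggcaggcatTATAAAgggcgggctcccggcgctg

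Over the 250 bases before the start site and on both strands, TATAAA was found in 4 of the 6 promoters, against 12.4% of 32851 RefSeq promoters of that length. Counted from the start site, its first base lay at −26 in *Postn*, −25 in *Ccn1* and −126 in *Tnc*, and in *Thbs2* it lay at −126 on the opposite strand. CATTCC was found in *Ccn1* alone, at −103, and in 12.6% of all promoters. The E-box CANNTG, the site of basic helix-loop-helix factors, occurred 3 times in *Tnc*, 2 times in *Sparc* and 1 time in *Thbs2*, and 66.2% of all promoters held at least 1. No match was found in the 6 windows for the AP-1 motif TGANTCA (6.75% of all promoters), the SMAD palindrome GTCTAGAC (0.167%) or the CArG box bound by SRF (1.47%). These are matches of letters, and binding was not measured.

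Each library held between 47520759 and 73063697 counts. *Wwp2* itself averaged 19.5 ± 2.5 CPM (counts divided by the total of the library and scaled to 1e+06; SD, n = 5) in WWP2-/- cells with TGFβ1 and 50.2 ± 6.4 in WT cells with TGFβ1, and in both treatments the 5 WWP2-/- libraries lay below every WT library. Transcripts of sex chromosomes split the libraries in another way. *Xist*, the RNA of the inactive X chromosome, and the sum of 4 Y-linked genes were each called present at 1 CPM: 6 libraries held only *Xist* (120–297 CPM, with 1 WT, 3 WT TGFβ1, 1 WWP2-/- and 1 WWP2-/- TGFβ1), 9 only Y-linked transcripts (219–300 CPM, with 1, 1, 3 and 4) and 5 held both (3 WT, 1 WT TGFβ1 and 1 WWP2-/-). Genotype and *Xist* were thus unevenly mixed, and the main genotype differences are also given with *Xist* as a covariate. *Acta2*, the actin of myofibroblasts, stood at 39.7 CPM in WWP2-/- replicate 3 and 49.0 CPM in WWP2-/- TGFβ1 replicate 1, against at least 945 CPM elsewhere. These 2 libraries, both with *Xist* only, are called the Acta2-low libraries, and results are also given without them. Of the fibroblast markers, *Col1a1* (718–9622 CPM) and *Pdgfrb* (at least 114 CPM) exceeded 1 CPM in all 20 libraries, but *Pdgfra*, *Lum*, *Fap* and *S100a4* did so in only 13, 10, 10 and 9. Tubular markers were mixed as well. *Pax8* (6.18–220 CPM) and *Lrp2* (1.53–53.4 CPM) exceeded 1 CPM in all 20 libraries and *Cdh16* reached 413 CPM, whereas *Slc34a1* and *Umod*, which mark differentiated tubule segments, did not exceed 0.0339 and 0.187 CPM.

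Compared per length, as TPM (counts per GENCODE exon length, scaled to the same total in each library), *Sparc*, a collagen-binding protein, stood highest with a median of 5299 TPM over the 20 libraries. *Fn1* followed at 2890 TPM, *Ccn2* at 2619 TPM and *Thbs1* at 2347 TPM. *Ccn1* had a median of 1036 TPM, *Tnc* 425 TPM, *Thbs2* 396 TPM and *Postn* 115 TPM. *Tgfbi* was nearly silent at 2.41 TPM, with 6 counts in its lowest library. The order of medians says little about single libraries, since the ranges overlapped widely. The highest library exceeded the lowest 317-fold for *Thbs2*, 64.0-fold for *Tgfbi* and 33.5-fold for *Postn*. For *Ccn2*, *Fn1* and *Tnc* the fold was 17.7, 13.1 and 12.6, and for *Sparc*, *Thbs1* and *Ccn1* it was 9.45, 6.22 and 5.08. Together the 9 genes took 2.11%–2.88% of all counts in WT, 2.20%–3.64% in WT with TGFβ1, 0.995%–3.21% in WWP2-/- and 1.14%–7.20% in WWP2-/- with TGFβ1. The top of the last range was 1 library, WWP2-/- TGFβ1 replicate 3, in which *Fn1* alone took 4.50%.

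**Figure D1:**
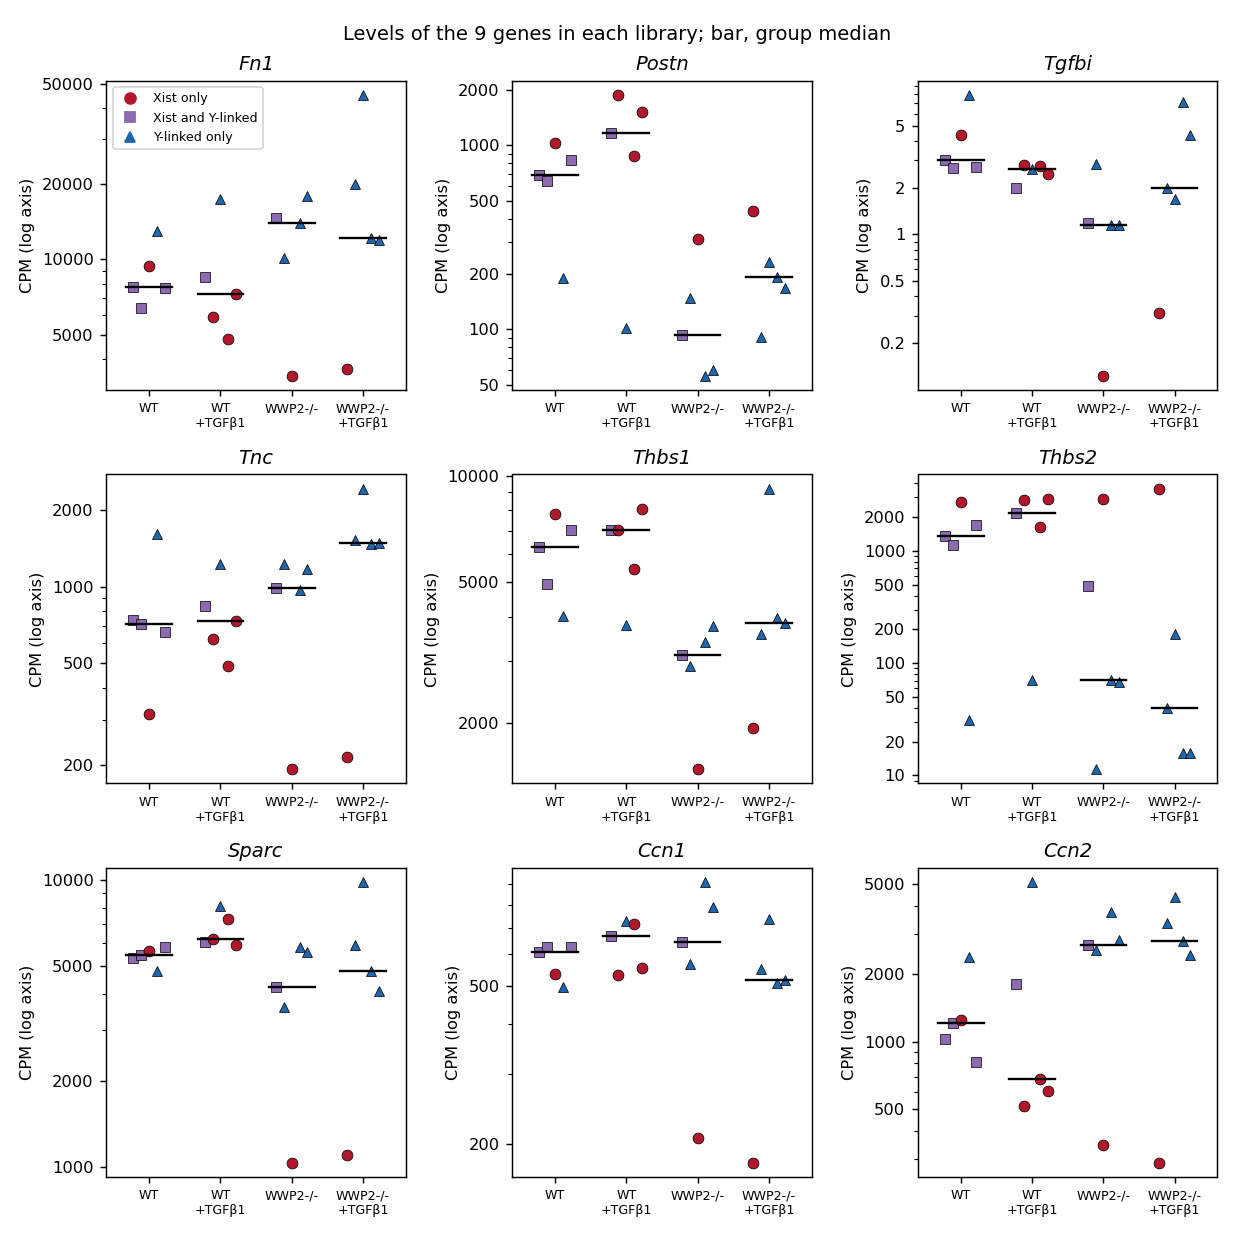
Level of each gene in each library, in CPM on a log axis, for replicates 1 to 5 of each group from left to right, with the group median as a bar. Colour and shape give the sex-chromosome transcripts found in the library: the red circles (Xist only) of Fn1, Tnc and Ccn2 all lie below the blue triangles (Y-linked only), and those of Postn and Thbs2 all lie above them.

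*Fn1* in untreated WT replicates 1 to 5 was at 7741, 6381, 9425, 12897 and 7677 CPM. In WT with TGFβ1 it was at 8525, 5907, 17315, 4823 and 7266 CPM. The range was wider with TGFβ1, and each WT group had 1 library above the other 4. In untreated WWP2-/- libraries *Fn1* was at 14529.8, 10129, 3438, 13998 and 17824 CPM, and with TGFβ1 at 3670.3, 19932, 45004, 12153 and 11896 CPM. WWP2-/- cells held both the highest and the lowest *Fn1* levels, and the 2 lowest were the Acta2-low libraries. The order of group medians was WWP2-/- (13998 CPM), WWP2-/- with TGFβ1 (12153 CPM), WT (7741 CPM) and WT with TGFβ1 (7266 CPM), and every neighbouring pair overlapped.

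*Postn* encodes periostin, a secreted protein that links collagen and tenascin to integrins. It was at 691, 637, 1031, 190.5 and 829 CPM in untreated WT and at 1174, 1877, 101, 877 and 1517 CPM in WT with TGFβ1. In untreated WWP2-/- it was at 93.5, 148, 311, 56.0 and 60.2 CPM, and with TGFβ1 at 441, 90.8, 231, 193 and 168 CPM. Thus in each treatment 4 of 5 WT libraries exceeded every WWP2-/- library of that treatment, and WT replicate 4 and WT TGFβ1 replicate 3 lay among the WWP2-/- libraries. Those are the 2 WT libraries with Y-linked transcripts only, and they also held the highest *Fn1* of their groups. The medians ran from WT with TGFβ1 (1174 CPM) over WT (691 CPM) and WWP2-/- with TGFβ1 (193 CPM) down to WWP2-/- (93.5 CPM), again with overlap between neighbours.

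The ratio of *Fn1* to *Postn* counts shows the opposite behaviour library by library. Its median was 10.01 in WT (range, 9.14–67.7), 5.50 in WT with TGFβ1 (3.15–171), 155 in WWP2-/- (11.1–296) and 70.9 in WWP2-/- with TGFβ1 (8.32–219). The same ratio was 3.15–11.1 in the 6 libraries with *Xist* only, 7.26–155 in the 5 with both kinds of transcript and 62.8–296 in the 9 with Y-linked transcripts only. The first and last ranges did not overlap, whereas the ranges of the 4 groups did.

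**Figure D2:**
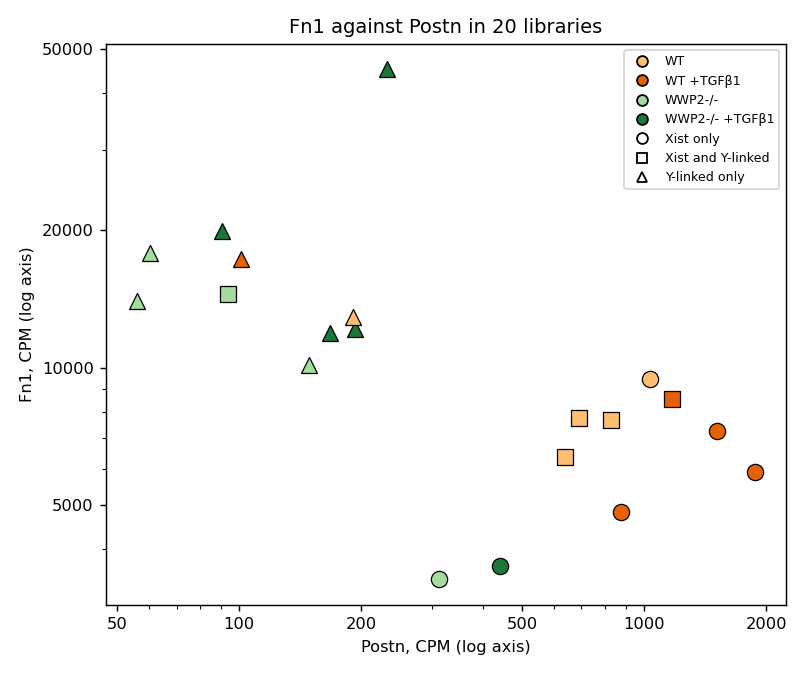
Fn1 against Postn in the 20 libraries, both in CPM on log axes, with colour for genotype and treatment and shape for sex-chromosome transcripts. The triangles (Y-linked only) lie at high Fn1 and low Postn and the circles (Xist only) at low Fn1 and higher Postn, and the 2 WWP2-/- circles are low in Fn1 with 311 and 441 CPM of Postn.

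With TGFβ1, *Postn* was the only one of the 9 genes to pass the test between WWP2-/- and WT cells. It fell by 2.44 on the log2 scale (SE, 0.68; 95% CI, −3.86 to −1.02), from 1109 ± 676 to 225 ± 131 CPM (SD, n = 5 each), with an adjusted *P* of 0.0407 in edgeR's quasi-likelihood test across all genes. Adjusted *P* values from this test, with Benjamini–Hochberg adjustment over the 20407 genes, are used throughout, and a gene passed below 0.05. Of the 9 genes 1 passed, where 6.07% of all genes did, 3.96% lower and 2.1% higher. Of the members 4 had a positive fold change and 5 a negative one, with a median of −0.47 against 0.05 over all genes. In bulk RNA, fewer cells of a type cannot be told apart from less RNA per cell. The *Postn* call was narrow: it held in 2 of 10 fits that left out 1 library, namely those without WWP2-/- TGFβ1 replicate 1 and without WT TGFβ1 replicate 3, and the adjusted *P* ranged from 0.00658 to 0.101. With *Xist* as a covariate the difference was −0.94 (adjusted *P*, 0.274). Within libraries holding *Xist*, *Postn* was at 441 CPM in the 1 WWP2-/- library, which is Acta2-low, and at 877–1877 CPM in 4 WT libraries. Without *Xist* it was at 90.8–231 CPM in 4 WWP2-/- libraries and 101 CPM in the 1 WT library.

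*Fn1* averaged 18531 ± 15877 CPM in WWP2-/-, against 8767 ± 4978 CPM in WT cells with TGFβ1. The log2 difference of 1.05 did not pass (95% CI, −0.08 to 2.18; adjusted *P*, 0.235), and it was 0.28 without WWP2-/- TGFβ1 replicate 3, the library with 45004 CPM. The *Xist* covariate brought it to 0.16.

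*Tnc* encodes tenascin C, a large hexamer that loosens attachment to fibronectin. With TGFβ1 it was at 216, 1527, 2421, 1473 and 1485 CPM in WWP2-/-, against 839.5, 625, 1221, 491 and 731 CPM in WT libraries. Of the WWP2-/- libraries 4 of 5 exceeded every WT library and the fifth, Acta2-low, lay below all of them. None of the 9 genes separated the genotypes fully with TGFβ1, which 5.53% of all genes did. The log2 difference was 0.78 (95% CI, −0.29 to 1.85; adjusted *P*, 0.362), and −0.42 with *Xist* as a covariate.

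The thrombospondins bind CD47 and CD36, and thrombospondin 1 can activate latent TGFβ. *Thbs1* was at 1939.5, 3572, 9215, 3956 and 3832 CPM in WWP2-/-, against 7056, 7048, 3787, 5458 and 8065 CPM in WT libraries with TGFβ1. Its log2 difference of −0.59 did not pass (95% CI, −1.39 to 0.22; adjusted *P*, 0.360). WWP2-/- TGFβ1 replicate 3 held far more *Thbs1* than the other 4, and without it the log2 difference was −1.14 and passed, with an adjusted *P* of 0.0492.

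*Thbs2* was at 3604, 39.5, 184, 15.9 and 15.8 CPM in WWP2-/-, against 2194, 2873, 71.2, 1635 and 2935 CPM in WT libraries with TGFβ1. Each library was either at 1635 CPM or more or at 184 CPM or less, and both kinds of library occurred in each genotype. The log2 difference was poorly determined, at −1.43 with a 95% CI from −4.63 to 1.78 (adjusted *P*, 0.607). It was −5.00 without WWP2-/- TGFβ1 replicate 1, the only high WWP2-/- library, and 0.23 with *Xist* as a covariate.

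*Sparc*, which helps collagen to assemble, was at 1107, 5949, 9811, 4825 and 4116 CPM in WWP2-/-, against 6055, 6208, 8085, 7292 and 5909.8 CPM in WT libraries with TGFβ1, a log2 difference of −0.47 (95% CI, −1.39 to 0.45; adjusted *P*, 0.542). The lowest value was again that of the Acta2-low library. *Ccn1*, an integrin ligand induced by growth factors, differed by −0.47 (−1.16 to 0.21; adjusted *P*, 0.394), with 180–735 CPM in WWP2-/-, against 531–729 CPM in WT. *Ccn2*, formerly connective tissue growth factor, was at 289.8, 3372, 4384, 2807 and 2418 CPM in WWP2-/-, against 1798, 516, 5122, 681 and 602 CPM in WT. Apart from WT TGFβ1 replicate 3 at 5122 CPM and the Acta2-low library at 290 CPM, *Ccn2* was higher in WWP2-/-, yet the log2 difference of 0.58 did not pass (−0.82 to 1.99; adjusted *P*, 0.637). *Tgfbi* differed by 0.11 (−1.18 to 1.40; adjusted *P*, 0.939) at 0.311–7.11 CPM in WWP2-/-, against 1.98–2.79 CPM in WT. With *Xist* as a covariate, *Sparc* moved to −1.22 (adjusted *P*, 0.159), *Ccn1* to −0.99 (adjusted *P*, 0.115) and *Thbs1* to −0.68 (adjusted *P*, 0.452).

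Without the 2 Acta2-low libraries, a fit chosen after the data were seen, 4 of the 9 genes passed in the TGFβ1-treated comparison. Over all genes 3480 passed in that fit, against 1238 in the fit of all 20 libraries. *Fn1* was higher by 1.32 on the log2 scale (adjusted *P*, 0.0485) and *Tnc* by 1.05 (adjusted *P*, 0.0355), while *Postn* was lower, at −2.85 (adjusted *P*, 0.0132), and *Thbs2* at −4.97 (adjusted *P*, 0.0277). The treated library left out was the lowest of its group in *Fn1* (3670 CPM) and *Tnc* (216 CPM). It was the highest of its group in *Postn* (441 CPM) and *Thbs2* (3604 CPM). Its removal thus moved each of these genes in the direction called, and the 4 calls are no independent support for a difference. The 4 treated WWP2-/- libraries left in this fit were all among those with Y-linked transcripts only, against 1 of the 5 treated WT libraries, and the part of this uneven mix in the 4 calls was not tested. With *Xist* as a covariate and all libraries, 0 of 9 passed in edgeR, while 630 of all genes passed. In that fit 2 of 9 had an unadjusted *P* below 0.05, and 4 of 9 in the untreated comparison. The share of all genes at that unadjusted level is not given here, so these counts cannot be set against it. With TGFβ1, DESeq2's Wald test without the covariate called 1 of 9, *Postn*, and 2672 of all genes.

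Markers of other cells also moved in this comparison. In its edgeR fit of all 20 libraries, 24.7% of all genes and 1 of the 9 members had an unadjusted *P* below 0.05. All 11 macrophage markers had a positive fold change (median, 2.53) and an unadjusted *P* below 0.05, and 0 of 11 passed in edgeR (10 by DESeq2). Their summed level was 87.0–3835 CPM in WWP2-/-, against 72.7–478 CPM in WT libraries with TGFβ1. The 10 tubular markers tested were positive as well (median, 1.98; 1 with an unadjusted *P* below 0.05, 0 passed in edgeR and 1 by DESeq2), with sums of 14.7–681 and 40.4–250 CPM. Of 12 fibroblast markers, *Col1a1*, *Col1a2*, *Fap* and *Col6a1* fell and 0 rose (median, −2.36), with sums of 5131–11992 CPM in WWP2-/-, against 11277–30732 CPM in WT. Other lists went both ways. Of 10 endothelial markers 8 were positive and 2 negative (median, 0.70), and 2 passed, both lower. Of 11 contractile markers 4 were positive and 7 negative (median, −0.14), and 0 passed. Of 9 pericyte and mesangial markers tested, 5 were positive and 4 negative (median, 0.14), and 1 passed, lower. The part of all these markers in the values of the 9 genes was not tested.

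**Figure D3:**
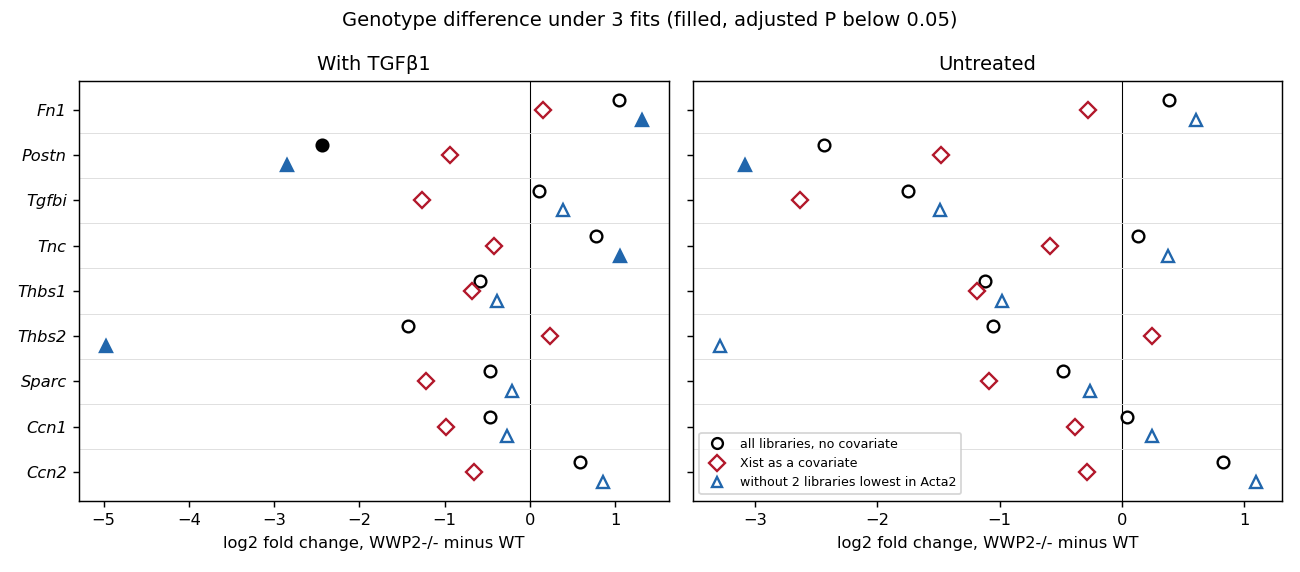
Log2 difference between WWP2-/- and WT cells for each gene, with TGFβ1 (left) and untreated (right), in the fit of all 20 libraries (circles), with Xist as a covariate (diamonds) and without the 2 Acta2-low libraries (triangles). Filled symbols passed at an adjusted P below 0.05, and Tnc, Thbs2 and Ccn2 change sign between circles and diamonds in both panels.

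In untreated cells, 0 of the 9 genes passed between WWP2-/- and WT in edgeR, where 0.725% of all genes did (0.622% lower and 0.103% higher), and 3 of 9 had an unadjusted *P* below 0.05 (14.9% of all genes). By DESeq2's Wald test 1 of 9 passed, *Postn*, as did 743 of all genes. The 3 were *Postn*, *Tgfbi* and *Thbs1*, all lower in WWP2-/-. *Postn* averaged 134 ± 106 CPM in WWP2-/-, against 676 ± 311 CPM in WT, a log2 difference of −2.43 (95% CI, −3.85 to −1.01; adjusted *P*, 0.104), which passed at −2.73 without WT replicate 4 (adjusted *P*, 0.0279). The *Xist* covariate brought it to −1.48 (adjusted *P*, 0.113). Within libraries holding *Xist*, the 2 WWP2-/- libraries were at 93.5 and 311 CPM and 4 WT libraries at 637–1031 CPM. Without *Xist*, 3 WWP2-/- libraries were at 56.0–148 CPM and the 1 WT library at 190 CPM. The libraries holding *Xist* were not alike in other respects. Of the 2 WWP2-/- ones, replicate 3 was Acta2-low, and replicate 1 held 220 CPM of Y-linked transcripts, against 0.0761–89.8 CPM in the 4 WT libraries.

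*Thbs1* was at 3109, 2910.1, 1482, 3394 and 3776 CPM in untreated WWP2-/-, against 6313, 4936, 7811, 4031 and 7042 CPM in untreated WT libraries. Its groups did not overlap, which held for 2.82% of all genes in this comparison, and it was the only such member. The log2 difference was −1.12 (95% CI, −1.93 to −0.31; adjusted *P*, 0.196), between −1.29 and −0.98 over the fits without 1 library. It was −1.19 with *Xist* as a covariate (adjusted *P*, 0.168). *Tgfbi* was at 1.18, 2.85, 0.123, 1.15 and 1.15 CPM in WWP2-/-, against 3.02, 2.66, 4.36, 7.89 and 2.72 CPM in WT. Here 4 of 5 WWP2-/- libraries lay below every WT library, at a level of a few CPM, and the log2 difference of −1.75 (95% CI, −3.08 to −0.43; adjusted *P*, 0.215) became −2.63 with *Xist* as a covariate (adjusted *P*, 0.0586).

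*Ccn2* was at 2679.9, 2563, 346, 3784 and 2837 CPM in untreated WWP2-/-, against 1026, 1214, 1249, 2373 and 816 CPM in untreated WT libraries. Of 5 WWP2-/- libraries 4 exceeded every WT library and the Acta2-low library lay below them all. The log2 difference of 0.83 did not pass (95% CI, −0.58 to 2.24; adjusted *P*, 0.579), nor did that of 1.09 without the 2 Acta2-low libraries (adjusted *P*, 0.289). *Tnc* was at 992, 1225, 193, 971 and 1167 CPM in WWP2-/-, against 737, 714, 318, 1613 and 665 CPM in WT (log2 difference, 0.13; 95% CI, −0.93 to 1.19). *Thbs2* was at 486, 11.4, 2931, 70.7 and 68.5 CPM in WWP2-/-, against 1375, 1124, 2737, 31.5 and 1707 CPM in WT (−1.05; −4.23 to 2.13). In both genotypes *Thbs2* again took very high and very low values. The differences of *Fn1* (0.39; −0.73 to 1.51), *Sparc* (−0.48; −1.40 to 0.44) and *Ccn1* (0.05; −0.64 to 0.73) did not pass either. With *Xist* as a covariate *Sparc* was at −1.09 (adjusted *P*, 0.201). Of the untreated markers, 10 of 11 macrophage (median, −0.84), 6 of 10 tubular (−0.35) and 10 of 12 fibroblast ones (−1.39) were negative, and 0 passed. Positive were 10 of 11 contractile, 7 of 10 endothelial and 5 of 9 pericyte markers, and 1 endothelial marker passed, lower. The part of these markers in the 9 genes was not tested.

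TGFβ1 itself left no detectable mark on the 9 genes in this test, which treats the libraries as unpaired. In WT cells 0 of 9 passed, as did 0% of all genes, and 0 of 9 had an unadjusted *P* below 0.05 (6.85% of all genes). In WWP2-/- cells 0 of 9 passed, as did 0% of all genes, with 0 of 9 at an unadjusted *P* below 0.05 (3.49% of all genes). DESeq2's Wald test also called 0 of 9 in each, and 27 of all genes in WT and 49 in WWP2-/- cells. In each genotype 8 of 9 fold changes were positive, with medians of 0.24 in WT and 0.69 in WWP2-/- cells against 0.02 and 0.00 over all genes. All 11 macrophage markers had a negative fold change with TGFβ1 in WT cells (median, −2.47; 10 with an unadjusted *P* below 0.05, 0 passed in edgeR or DESeq2). So did the 10 tubular markers tested (median, −2.15; 3 unadjusted, 0 passed in edgeR). In WWP2-/- cells all 11 macrophage markers had a positive fold change (median, 0.82; 0 unadjusted), as did 5 of 10 tubular markers (median, 0.24). The part of these markers in the values of the 9 genes was not tested.

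In WT cells, *Sparc* was at 5321, 5474, 5651, 4799.5 and 5854 CPM untreated and 6055, 6208, 8085, 7292 and 5909.8 CPM with TGFβ1. The groups did not overlap, as for 1.19% of all genes, and the log2 difference was 0.40 (95% CI, −0.52 to 1.32; adjusted *P*, 0.935), small beside the spread that the fit pools from all 4 groups. *Postn* was 0.83 higher (−0.53 to 2.18; adjusted *P*, 0.898), with 3 of 5 treated libraries above every untreated one. *Ccn1* was 0.24 higher (−0.45 to 0.92) and *Thbs1* 0.16 higher (−0.64 to 0.96). *Fn1* (0.06; −1.06 to 1.17) and *Tnc* (0.06; −0.997 to 1.12) were nearest to 0. *Ccn2* differed by 0.42 (−0.99 to 1.82), which became −0.42 without WT TGFβ1 replicate 3. *Thbs2* (0.57; −2.58 to 3.73) and *Tgfbi* (−0.58; −1.87 to 0.71) completed the set.

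In WWP2-/- cells, the largest estimate was that of *Tgfbi*, at 1.28 (95% CI, −0.03 to 2.59; unadjusted *P*, 0.0554; adjusted *P*, 0.99995). *Postn* was 0.82 higher with TGFβ1 (−0.54 to 2.18), close to its value in WT cells. *Fn1* was 0.72 higher (−0.40 to 1.84) but −0.04 without WWP2-/- TGFβ1 replicate 3, and *Tnc* was 0.71 higher (−0.36 to 1.78), with 4 of 5 treated libraries above every untreated one. *Thbs1* was 0.69 higher (−0.11 to 1.499), *Sparc* 0.41 (−0.51 to 1.33), *Thbs2* 0.19 (−2.95 to 3.34) and *Ccn2* 0.17 (−1.23 to 1.57). *Ccn1* was the only gene with a negative value, −0.28 (−0.97 to 0.40).

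The effect of genotype did not detectably depend on TGFβ1. In the interaction 0 of 9 passed, as did 0% of all genes, and 1 of 9, *Tgfbi*, had an unadjusted *P* below 0.05 (6.98% of all genes), at 1.86 (95% CI, 0.02 to 3.70; unadjusted *P*, 0.0474; adjusted *P*, 0.707). DESeq2's Wald test called 0 of 9 and 10 of all genes. For *Postn* the interaction was −0.01 with an interval from −1.92 to 1.90, and for *Fn1* it was 0.66 (−0.92 to 2.24). All 11 macrophage markers had a positive interaction (median, 3.36; 10 with an unadjusted *P* below 0.05, 0 passed in edgeR). So did the 10 tubular markers tested (median, 2.10; 0 unadjusted), and the part of both in the 9 genes was not tested. The genotype differences with and without TGFβ1 use separate libraries, whereas each shares its libraries with the comparisons of treatment.

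**Figure D4:**
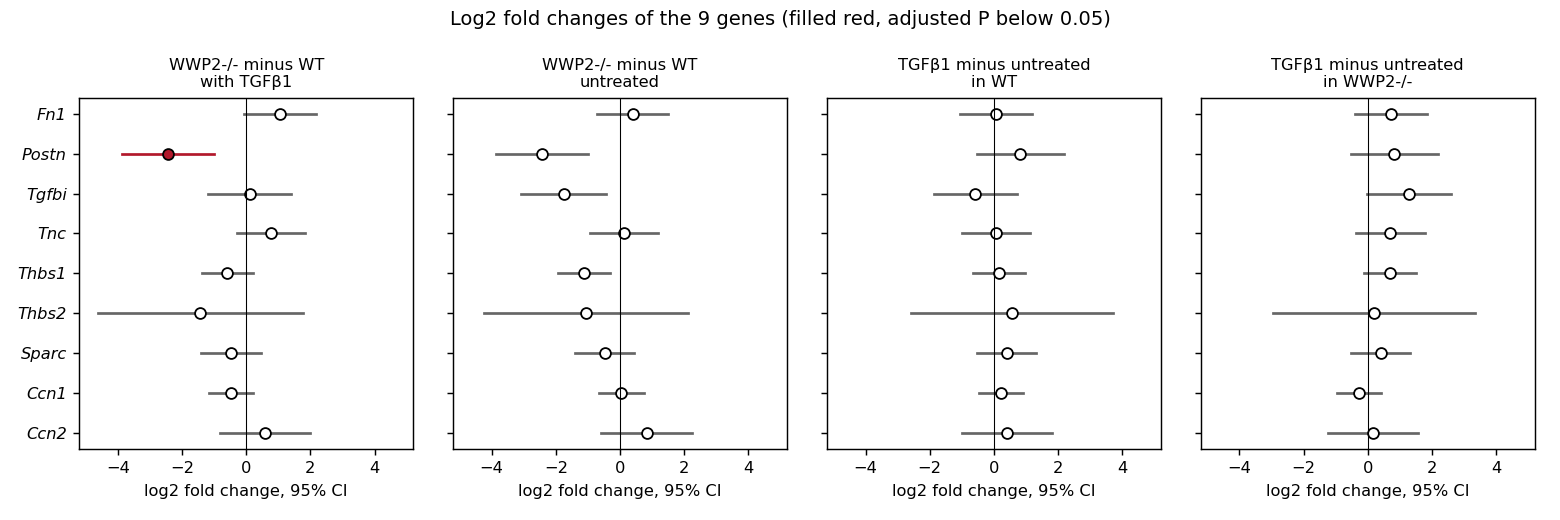
Log2 fold change and 95% CI of the 9 genes in 4 comparisons, from the fit of all 20 libraries. Only Postn in WWP2-/- against WT with TGFβ1 passed (filled red), and the intervals of Thbs2 are the widest in every panel.

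Across groups, the sex-chromosome transcripts of a library separated 5 of the 9 genes. *Fn1* was at 3438–9425 CPM (median, 5365) in the 6 libraries with *Xist* only and at 10129–45004 CPM (median, 13998) in the 9 with Y-linked transcripts only. *Tnc* was at 193–731 and 971–2421 CPM, and *Ccn2* at 290–1249 and 2373–5122 CPM. These 3 genes were thus higher in every library with Y-linked transcripts only. In the other direction, *Postn* was at 311–1877 CPM with *Xist* only and 56.0–231 CPM with Y-linked transcripts only, and *Thbs2* at 1635–3604 and 11.4–184 CPM. Of all genes tested, 12.2% did not overlap between these libraries, 3.42% being higher with *Xist*. In the 5 libraries with both kinds of transcript *Thbs2* was at 486–2194 CPM, above every library with Y-linked transcripts only, and the other 4 genes overlapped both sides. *Thbs1*, *Sparc*, *Ccn1* and *Tgfbi* overlapped between the 2 kinds of library. Genotype was unevenly spread over them, with 4 WT and 2 WWP2-/- libraries against 2 WT and 7 WWP2-/- libraries, and the labels do not give the sex of the mice.

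Related genes were read from 6 lists, which hold 134 genes tested. Of 32 other matricellular and associated genes, 28 were tested and 11 passed in WWP2-/- against WT cells with TGFβ1, 2 higher and 9 lower, with a median log2 difference of −1.12. Over all genes 6.07% passed in this comparison, 2.1% higher and 3.96% lower. *Fbln7* (fibulin 7) fell from 149 to 4.33 CPM, a log2 difference of −5.23 (SE, 1.12; adjusted *P*, 0.0138). *Sparcl1*, the closest relative of *Sparc*, fell from 6.60 to 0.223 CPM (−5.08; SE, 0.97; adjusted *P*, 0.0100). *Vcan*, the proteoglycan versican, rose from 49.9 to 316 CPM (2.61; SE, 0.56; adjusted *P*, 0.0138). These 3 calls held in 10 of 10 fits without 1 library, but adding the *Xist* covariate ended all 3 (adjusted *P*, 0.152, 0.103 and 0.0521). The others that fell were *Ccn3*, *Thbs3*, *Smoc1*, *Fbln1*, *Fbln5*, *Ecm1* and *Lox*, and *Spock3* rose at under 1 CPM. With *Xist* as a covariate 0 of the 28 were higher and 1 was lower, and without the Acta2-low libraries 3 were higher and 14 lower. In untreated cells 2 of 28 passed, both lower: *Ccn3*, a Ccn protein often set against *Ccn2*, at 24.9 against 492 CPM (−4.44; SE, 0.96; adjusted *P*, 0.0432) and *Sparcl1* (−4.21; SE, 0.93; adjusted *P*, 0.0437). Each of these 2 calls held in 1 of 10 fits without 1 library, and neither held with *Xist* as a covariate or without the Acta2-low libraries (adjusted *P*, 0.0540 for *Ccn3* and 0.0550 for *Sparcl1* in the latter).

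Receptors and assembly factors followed. Of 22 genes for fibronectin receptors and their adhesion partners, 3 fell and 0 rose with TGFβ1, with a median of −0.18. They include *Itga8*, a fibronectin-binding integrin chain, at 0.879 against 2.78 CPM (−1.76; SE, 0.43; adjusted *P*, 0.0226) and *Itga9*, whose integrin binds tenascin C, at 8.41 against 16.8 CPM (−1.16; SE, 0.28; adjusted *P*, 0.0241), and the third was *Parva* (−0.93), which links integrins to actin. *Itga8* also stands in the list of pericyte and mesangial markers. Of 21 receptors and partners of the other members, 1 fell, *Stim1*, a calcium sensor of the endoplasmic reticulum, from 115 to 62.5 CPM (−1.004; SE, 0.16; adjusted *P*, 0.00581). *Stim1* passed in 10 of 10 fits without 1 library and with *Xist* as a covariate (adjusted *P*, 0.0178). *Itga8* passed in 4 and *Itga9* in 5 of 10, and neither did with *Xist*.

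Among 20 TGFβ response genes, 2 rose and 3 fell in WWP2-/- cells with TGFβ1 (median, 0.00). *Bhlhe40*, a transcriptional repressor, was at 344 against 149 CPM (1.10; SE, 0.27; adjusted *P*, 0.0243). The chains of type I collagen moved the other way: *Col1a2* was at 1268 against 7342 CPM (−2.63; SE, 0.57; adjusted *P*, 0.0142) and *Col1a1* at 2026 against 7480 CPM (−1.98; SE, 0.58; adjusted *P*, 0.0492). *Col1a2* passed in 10 of 10 fits without 1 library, and *Bhlhe40* and *Col1a1* in 4 and 2. With *Xist* as a covariate, *Bhlhe40* passed (adjusted *P*, 0.0487) and *Col1a1* and *Col1a2* did not. Both collagen genes also stand in the fibroblast marker list. The third gene that fell was *Cilp*, at under 1 CPM, which was also the 1 of 20 that passed in untreated cells (−5.36; adjusted *P*, 0.0270).

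Of 23 YAP and TEAD targets other than *Ccn1* and *Ccn2*, 3 fell and 0 rose with TGFβ1 (median, −0.22). *Igfbp3*, a carrier of insulin-like growth factors, was at 62.9 against 3376 CPM (−5.88; SE, 1.35; adjusted *P*, 0.0177) and passed in 9 of 10 fits without 1 library, while *Rbms3*, an RNA-binding protein, was at 67.1 against 166 CPM (−1.42; SE, 0.37; adjusted *P*, 0.0319) and passed in 3. Neither passed with *Xist* as a covariate. Of 20 immediate early genes, 2 rose and 0 fell (median, 0.30). *Jun*, a subunit of AP-1, was at 139 against 61.5 CPM (1.05; SE, 0.22; adjusted *P*, 0.0129), and passed in 10 of 10 such fits and with *Xist* (adjusted *P*, 0.0388). *Egr2*, a zinc finger factor, was at 11.97 against 3.39 CPM (1.78; SE, 0.45; adjusted *P*, 0.0277) and passed in 5 of 10, but neither with *Xist* (adjusted *P*, 0.0796) nor in a fit of only the groups compared (0.0810). The third gene of the YAP and TEAD list was *Asap1* (−1.23). Over the 6 lists, 25 of 134 genes passed in edgeR with TGFβ1 (48 by DESeq2) and 3 untreated (14 by DESeq2). Of all genes, 6.07% and 0.725% passed in edgeR, and DESeq2 called 2672 and 743. After adding *Xist* as a covariate in edgeR, 4 and 0 of the 134 passed, beside 630 and 82 of all genes. In the untreated comparison 31 of 134 then had an unadjusted *P* below 0.05, and the share of all genes at that level is not given here. For TGFβ1 against untreated 0 of 134 passed in WT cells (10 at an unadjusted *P* below 0.05, 1 by DESeq2) and 0 of 134 in WWP2-/- cells (12 unadjusted, 0 by DESeq2), and for the interaction 0 of 134 did (11 unadjusted, 0 by DESeq2). Of all genes, 6.85%, 3.49% and 6.98%, in the same order, had an unadjusted *P* below 0.05 in edgeR.

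**Figure D5:**
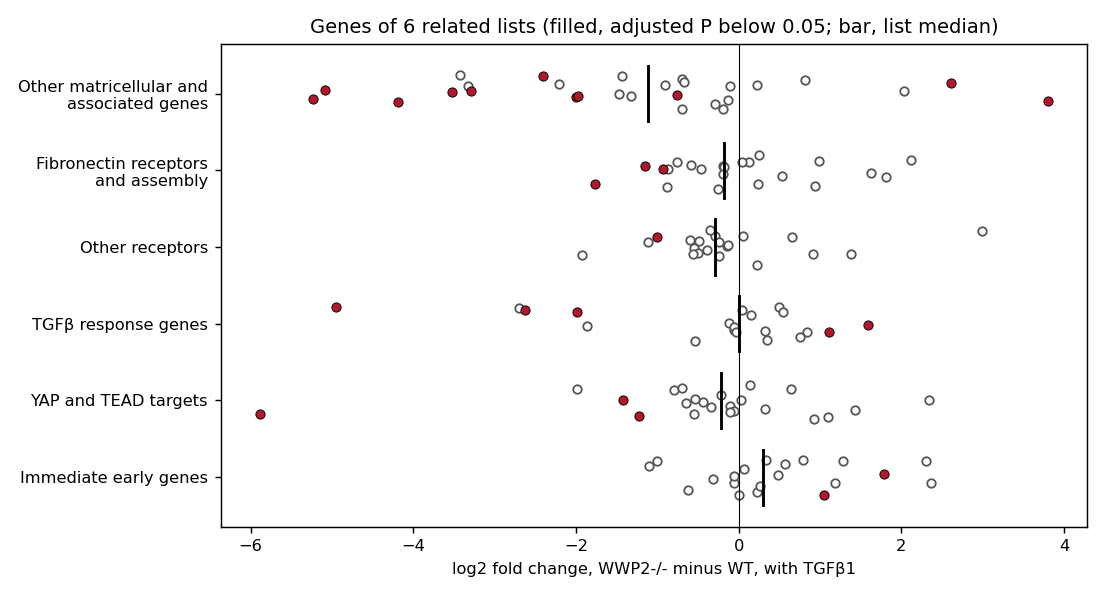
Log2 difference between WWP2-/- and WT cells with TGFβ1 for every tested gene of 6 lists, with 1 point per gene, filled red where the adjusted P was below 0.05, and the list median as a bar. The list of other matricellular genes has the lowest median, −1.12, and the immediate early genes the highest, 0.30.

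The genes most like each member over the 20 libraries were taken from 9720 genes with a mean of at least 10 CPM, by Pearson *r* of log2 CPM with a pseudocount of 1. The libraries share genotype, treatment and sex-chromosome content, so *r* is a description without a test. Nearest to *Fn1* were *Itgb1* (0.959), the β1 integrin chain shared by most fibronectin receptors, *Robo1* (0.958) and *Ncam1* (0.951). Nearest to *Postn* were *Steap3* (0.938), *Avpr1a* (0.935) and *Ephb2* (0.931). *Tnc* was most like *Tpm1* (0.957), *Pdgfb* (0.955) and *Endod1* (0.955). *Thbs2* ran with *Fam129a* (0.977), *Dcn* (0.976), which encodes decorin, and *Ctsk* (0.973). None of these lists overlapped with another, apart from *Palld*, an actin-binding protein, which was near both *Sparc* (0.959, after *Cdon* at 0.961 and *Mmp2* at 0.960) and *Ccn1* (0.958, after *Myl9* at 0.969 and *Bmp4* at 0.960). *Ccn2* was most like *Khdrbs3* (0.975), *Slc35d1* (0.959) and *Rassf3* (0.958), and *Thbs1* most like *Myo1d* (0.921), *Pknox2* (0.918) and *Nav1* (0.913). *Tgfbi* was most like *Ctsf* (0.926), *Ttc30b* (0.884) and *Skap2* (0.867).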

How the data were processed

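Bulk RNA-seq of 20 libraries was analysed. Per the labels and the study's methods, libraries were made from poly-A RNA and read in pairs, and the authors used STAR for alignment to GRCm38 (also named mm10 in the submitters' processing notes) and featureCounts for reads on exons. The deposited values are counts per gene without normalization. Whether counting used strand is not given in the sources used here. Groups and replicate numbers come from the labels. No pair of libraries was identical.

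The study's filter was used, 5 or more counts in 5 or more libraries. Counts were TMM-normalized and fitted with edgeR 4.0.16 (glmQLFit, glmQLFTest) in R 4.3.3, with all 20 libraries, 4 groups and no block. *P* values were adjusted by Benjamini–Hochberg over the 20407 genes tested. Intervals are at 95% from the fit's *t* distribution and residual spread. CPM used total counts, and TPM used merged exon lengths of GENCODE M21, which names 51633 of 51826 genes. The procedure was tested on simulated counts drawn independently for each gene and library. They held no mix of sex-chromosome transcripts, no Acta2-low libraries and no shifts of cell types, so that test does not cover these. Y-linked transcripts were the sum of *Ddx3y*, *Eif2s3y*, *Kdm5d* and *Uty*.

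The members, gene lists and tests were chosen with earlier results of these data known. Named genes were the 9 members, *Wwp2* and *Xist*, up to 2 increases and 2 decreases per list and comparison that passed with a mean of at least 1 CPM, and the 3 genes most like each member. Other genes of a list that passed, *Acta2*, and the markers *Slc34a1* and *Umod* were named after their values were seen. Alternatives were DESeq2's size factors and Wald test (DESeq2 1.42.0), other filters, the replicate number as a block, log2 CPM of *Xist* as a covariate, a fit of only the groups compared, each library left out in turn and, chosen after seeing the data, leaving out the 2 libraries lowest in *Acta2*. The other experiments of the study were not analysed here. The values of 1 gene of the TGFβ response list are not reported here.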

Additional observations from a re-analysis of the deposited data

Results flagged for a closer look

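In each group of 5 libraries, the gap of the highest or lowest library to its nearest neighbour was compared with the whole range for each of the 9 genes. Of 36 such groups 6 held a library that stood apart at Dixon's 95% critical value. The nominal 5% of that value is for independent, normally distributed values. These were CPM of 9 genes in the same 20 libraries, so 6 of 36 cannot be set against it. *Tnc* was lowest, at 193 CPM, in WWP2-/- replicate 3. *Thbs2* was highest, at 2931 CPM, in the same WWP2-/- replicate 3, and highest, at 3604 CPM, in WWP2-/- TGFβ1 replicate 1. Both are the libraries lowest in *Acta2* and hold *Xist* only. *Ccn2* was highest, at 2373 CPM, in WT replicate 4 and highest, at 5122 CPM, in WT TGFβ1 replicate 3, the 2 WT libraries with Y-linked transcripts only. *Thbs1* was highest, at 9215 CPM, in WWP2-/- TGFβ1 replicate 3, the library that also held the most *Fn1* and *Sparc*. Of the 9 interactions of genotype and TGFβ1, 0 passed in edgeR.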

How the results depend on the processing

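Members that passed in WWP2-/- against WT with TGFβ1 numbered 1 in the reported fit and 0 without a filter, with the replicate number as a block, with *Xist* as a covariate or in a fit of only the groups compared, 4 without the 2 libraries lowest in *Acta2*, and 0–1 when 1 library was left out. Untreated, the number was 0, and 1 by DESeq2's Wald test, 1 without those 2 libraries and 0–1 when 1 library was left out. *Postn* with TGFβ1 had an adjusted *P* of 0.0407 with TMM and with DESeq2's size factors, 0.0358 with at least 10 counts in every library, 0.00311 by DESeq2, 0.0132 without the 2 libraries, 0.0525 without a filter, 0.0659 with the block, 0.0888 with only the groups compared and 0.274 with *Xist*. Over all genes, 1238 passed with TGFβ1 (790 without a filter, 670 with the block, 630 with *Xist*, 2672 by DESeq2, 534 with only the groups compared, 3480 without the 2 libraries, 453–2730 with 1 left out) and 148 untreated (1 with the block, 82 with *Xist*, 743 by DESeq2, 1 with only the groups compared, 271 without the 2 libraries, 1–743 with 1 left out). TGFβ1 in WT gave 0 (1 with *Xist*, 27 by DESeq2), TGFβ1 in WWP2-/- 0 (49 by DESeq2, 0–63 with 1 left out) and the interaction 0 (10 by DESeq2). The cause of these shifts was not tested.

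Some fold changes that did not pass also turned sign. The *Postn* interaction (−0.01) was 0.0483 with DESeq2's size factors, 0.0240 without a filter, 0.0431 with at least 10 counts, 0.0483 by DESeq2, 0.54 with *Xist* and 0.23 without the 2 libraries. With the block, *Tgfbi* with TGFβ1 was −0.15, *Fn1* for TGFβ1 in WT −0.0192, *Thbs2* and *Ccn2* for TGFβ1 in WWP2-/- −0.78 and −0.0789, and the *Sparc* interaction −0.11. With *Xist*, the genotype difference with TGFβ1 was −1.27 for *Tgfbi*, −0.42 for *Tnc*, 0.23 for *Thbs2* and −0.66 for *Ccn2*, and untreated −0.28 for *Fn1*, −0.58 for *Tnc*, 0.25 for *Thbs2*, −0.38 for *Ccn1* and −0.29 for *Ccn2*. Also with *Xist*, *Fn1* for TGFβ1 in WT was −0.0281, *Ccn2* for TGFβ1 in WWP2-/- −0.32 and the *Sparc* interaction −0.13. Without the 2 libraries, *Thbs2* for TGFβ1 in WWP2-/- was −1.13.

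With 1 library left out, the ranges that crossed 0 were, for the genotype difference, −0.46 to 0.38 (*Tgfbi* with TGFβ1), −0.17 to 0.24 (*Ccn1* untreated) and −0.0735 to 0.46 (*Tnc* untreated). For TGFβ1 in WT they were −0.42 to 0.66 (*Ccn2*), −0.26 to 0.19 (*Fn1*) and −0.13 to 0.41 (*Tnc*). For TGFβ1 in WWP2-/- they were −0.17 to 0.46 (*Ccn2*), −0.0367 to 0.99 (*Fn1*), −0.0548 to 0.67 (*Sparc*) and −3.33 to 2.41 (*Thbs2*). For the interaction they were −0.58 to 0.59 (*Ccn2*), −0.0892 to 0.99 (*Fn1*), −0.40 to 0.63 (*Postn*), −0.45 to 0.27 (*Sparc*) and −3.89 to 1.85 (*Thbs2*).

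Libraries with the same replicate number were not shown to be paired: the correlation of their deviations from the group means ran from −0.52 to 0.30 between treatments in WT, −0.19 to 0.28 in WWP2-/-, −0.02 to 0.44 between genotypes untreated and −0.42 to 0.13 with TGFβ1. The block is therefore an alternative only. Under any number, the treated library most correlated with WT replicates 1, 2, 3, 4 and 5 was replicate 1, 4, 5, 3 and 2. For WWP2-/- replicates 1, 2, 3, 4 and 5 it was replicate 2, 5, 1, 3 and 3. Pairing of treated and untreated libraries under other numbers was not tested, and the tests of TGFβ1 treat them as unpaired. With 5 libraries a group, depth was not limiting except for *Tgfbi*, whose lowest library held 6 counts.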

Other observations

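The 2 libraries lowest in *Acta2*, WWP2-/- replicate 3 and WWP2-/- TGFβ1 replicate 1, resembled each other in the 9 genes although 1 was treated and the other not. *Fn1* was at 3438 and 3670 CPM, *Sparc* at 1038 and 1107 CPM, *Ccn1* at 207 and 180 CPM, *Ccn2* at 346 and 290 CPM, *Tnc* at 193 and 216 CPM, *Thbs1* at 1482 and 1940 CPM and *Tgfbi* at 0.123 and 0.311 CPM. For each of these 7 genes they were the 2 lowest of the 20 libraries. *Thbs2* was at 2931 and 3604 CPM, among the 3 highest of the 20, and *Postn* at 311 and 441 CPM, the 2 highest of the 10 WWP2-/- libraries.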
